A study of Mus musculus with 7 samples.

Results

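The chaperones that fold secretory proteins in the lumen of the endoplasmic reticulum (ER), together with *Xbp1* and *Atf6*, the transcription factors that control them in the unfolded protein response (UPR), were examined in primary mouse hepatocytes with and without WDR6. The 10 genes were taken by symbol, namely *Hspa5*, *Hsp90b1*, *Hyou1*, *Dnajb9*, *Dnajb11*, *Dnajc3*, *Sdf2l1*, *Pdia4*, *Xbp1* and *Atf6*. All 10 were found among the 14817 identifiers of the read-count table, and all 10 passed the filter on low counts, with which 14779 genes were tested. RNA was sequenced from hepatocytes of male WT mice (n = 4) and of male WDR6-WKO mice (n = 3), a whole-body knockout in which exon 2 of *Wdr6* had been deleted with CRISPR–Cas9. The cells were isolated by collagenase perfusion, kept overnight in medium with fetal bovine serum and received no treatment. The study's methods give a default strain, C57BL/6J, and a default age for purchased mice, and do not say whether these hold for the knockout line and its controls. They call all replicates biological. The number of founders behind the knockout and the dates of isolation are not given in the sources used here.

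Secretory proteins enter the ER unfolded. Chaperones of the Hsp70 and Hsp90 families hold them in solution, J-domain proteins direct the Hsp70 to its clients, and protein disulfide isomerases join their cysteines. When unfolded proteins accumulate, the sensor IRE1 splices the mRNA of *Xbp1* into the form that encodes the active factor. ATF6 is carried to the Golgi and cut there to release its active part, and both factors then raise the genes of the ER folding machinery. The third sensor, PERK, phosphorylates eIF2α and thereby induces ATF4 and its targets, the integrated stress response, which other kinases can start without any ER signal. Hepatocytes secrete most plasma proteins and hold these chaperones at high levels. Read counts per gene do not tell spliced from unspliced *Xbp1*, and they do not measure cleavage of ATF6.

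The libraries held between 17816913 and 23668940 counted reads. Levels are in CPM (counts relative to the TMM-scaled library total), and values after ± are s.d. over the 4 WT or the 3 WDR6-WKO libraries. *Wdr6*, the targeted gene, averaged 44.0 ± 4.03 CPM (s.d., n = 4) in the WT and 2.38 ± 0.179 CPM (s.d., n = 3) in the WDR6-WKO libraries, and each WDR6-WKO library was below every WT library. Of 10 markers of hepatocytes all were counted, with a summed level of 15867 to 18873 CPM in WT and 14311 to 16353 CPM in WDR6-WKO, and 4 of them passed edgeR's quasi-likelihood test (adjusted p below 0.05) as lower and 0 as higher. All 15 markers of Kupffer cells (liver macrophages) were counted too. Their summed level was 915 to 1003 CPM in WT and 1075 to 1278 CPM in WDR6-WKO, with 5 of 15 higher and 0 lower in the same test. Markers of endothelial cells (1 of 10 lower, 0 higher), stellate cells (1 of 10 higher, 1 lower), cholangiocytes (2 of 6 tested higher, 0 lower) and B and plasma cells (0 of 3 tested) were also counted. In that test 12.8% of all genes tested were called, 6.65% as higher and 6.18% as lower. The part of these cell types in the results below was not tested. In such bulk samples, fewer cells of a type and less RNA per cell cannot be told apart.

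The promoters are shown because the ER stress response element (ERSE), the site through which ATF6 and XBP1 act together with NF-Y, sits near the start of several of these genes. RefSeq promoter windows of GRCm38.p6, 250 bases before to 50 bases after the start of a gene, were matched for 8 of the 10 genes, and *Hyou1* and *Atf6* were not among them. The search for ERSE read CCAAT, 9 bases of any kind and CCACG on both strands. It found the element in 3 of the 8 windows and in 0.119% of all 32851 windows. *Hspa5* holds it once in these exact letters, on its own strand at positions -65 to -47. *Hsp90b1* holds it on its own strand at positions -212 to -194 and on the opposite strand at -107 to -89. *Dnajc3* holds it at positions -105 to -87. ERSE-II, read as ATTGG, any base and CCACG, was found in 0.0365% of all windows and among the 8 genes in *Dnajb11*, at positions 8 to 18. The UPR element TGACGTGG (0.676% of all windows) and the core of the element bound by ATF4, TGATGNAA (3.97%), were in 0 of the 8. Each search took only the letters given, so variants and imperfect copies of an element were not counted. The stretch of *Hspa5* printed below holds tgacgtga, which differs from TGACGTGG in its last base. The motifs do not overlap in these windows. Positions count from the RefSeq start, with negative ones before it, each sequence is written 5′ to 3′ on the strand of its gene, and capitals mark the elements. The stretches printed are cut from the windows around the elements. That of *Hspa5* is chr2:34771840-34772089 on the plus strand, that of *Hsp90b1* chr10:86705513-86705676 on the minus strand, that of *Dnajc3* chr14:118937807-118937865 on the plus strand and that of *Dnajb11* chr16:22857843-22857871 on the plus strand.
Hspa5: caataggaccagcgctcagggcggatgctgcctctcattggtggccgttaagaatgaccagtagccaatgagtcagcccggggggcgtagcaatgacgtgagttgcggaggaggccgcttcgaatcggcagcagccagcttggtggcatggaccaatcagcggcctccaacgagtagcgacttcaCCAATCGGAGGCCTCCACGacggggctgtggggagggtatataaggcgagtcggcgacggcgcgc
Hsp90b1: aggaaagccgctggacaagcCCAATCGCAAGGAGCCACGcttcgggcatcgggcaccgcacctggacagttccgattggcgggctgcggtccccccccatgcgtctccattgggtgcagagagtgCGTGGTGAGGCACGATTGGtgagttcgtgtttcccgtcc
Dnajc3: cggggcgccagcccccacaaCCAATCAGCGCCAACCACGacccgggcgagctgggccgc
Dnajb11: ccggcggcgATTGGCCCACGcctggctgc

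In WDR6-WKO hepatocytes 3 of these mRNAs were lower than in WT, 1 was higher and 6 did not pass the test. *Xbp1* fell to 77.0%, *Hsp90b1* to 84.4% and *Pdia4* to 89.9% of the WT level, and *Atf6* rose to 121%. These 4 of 10 genes passed the edgeR test, 3 lower and 1 higher, where 12.8% of all genes tested were called, 6.18% as lower and 6.65% as higher. The other 6 genes had negative log2 fold changes between -0.15 and -0.038 and did not pass. The median log2 fold change of the 10 genes was -0.12, against 0.0051 over all genes tested. With the thresholds of the study for differentially expressed genes, a log2 fold change of 0.35 or more in size with an unadjusted P below 0.05, *Xbp1* alone was called, as lower, where 10.4% of all genes tested were called, 3.94% as lower and 6.42% as higher. The ranges of the groups were separate for 7 of the 10 genes, 6 with WDR6-WKO lower and 1 with it higher, where 11.7% and 11.8% of all genes tested had such ranges. At an adjusted p under 0.1, 5 of the 10 were called, where 19.2% of all genes were, and 7 had an unadjusted p below 0.05, where 28.1% of all genes did.

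**Figure D1:**
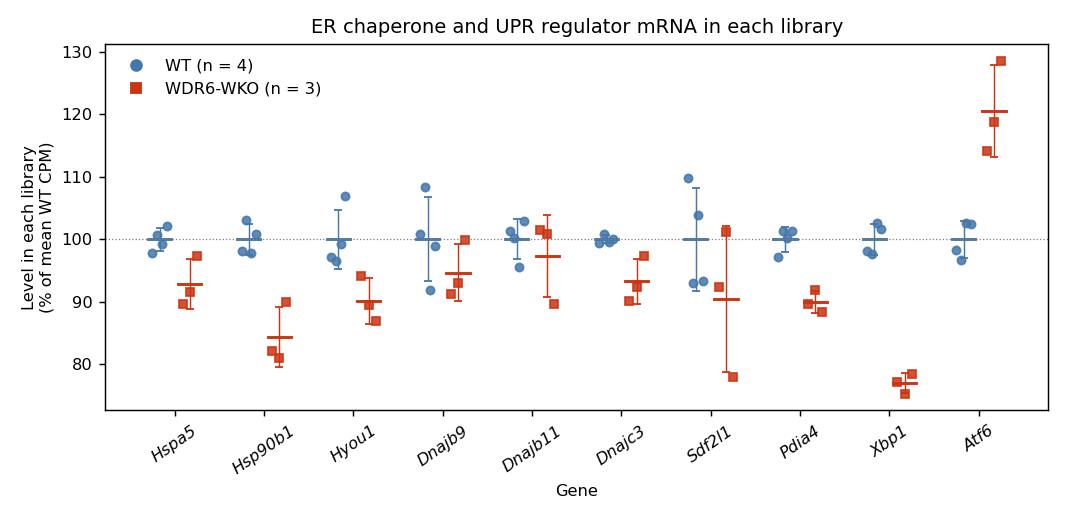
Level of each gene in each library as a percent of its mean WT CPM, for WT (circles, n = 4) and WDR6-WKO (squares, n = 3), with the mean as a bar and the s.d. as whiskers; within a group the points stand in order of replicate number. The WDR6-WKO libraries of *Xbp1* lie farthest below 100% as a group, those of *Atf6* lie above it, and those of *Dnajb9*, *Dnajb11* and *Sdf2l1* overlap with WT; the vertical axis does not start at 0.

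The largest chaperone by reads, *Hspa5*, encodes BiP, the Hsp70 of the ER that also holds the UPR sensors inactive. It lies on chromosome 2 of GRCm38 from 34771970 to 34777547 in the GENCODE annotation, whose start is upstream of the RefSeq start used for the promoter. By the GENCODE start, *Hspa5* holds the ERSE printed above inside the gene and not before it. Its level was 1123, 1156, 1140 and 1172 CPM in WT replicates 1 to 4 and 1029, 1051 and 1117 CPM in WDR6-WKO replicates 1 to 3. All 3 WDR6-WKO libraries were below the lowest WT library, with replicate 3 the nearest to WT. The means were 1148 ± 21.4 and 1066 ± 45.9 CPM, a log2 fold change of -0.11 with a 95% interval of -0.20 to -0.011. After adjustment *Hspa5* missed the threshold (edgeR, adjusted p = 0.134), and the exact two-sided permutation test gave p = 0.0286, the smallest that 4 samples against 3 allow. Without WDR6-WKO replicate 3 the log2 fold change was -0.14 and the adjusted p from edgeR 0.00519. In that fit 4233 of 14796 genes in all were called. Without any other single library *Hspa5* did not pass (edgeR, adjusted p of 0.165 to 0.335).

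*Hsp90b1* encodes the Hsp90 of the ER, which folds integrins, Toll-like receptors and insulin-like growth factors, and lies on chromosome 10 from 86690209 to 86705509. Its level was 488, 511, 486 and 501 CPM in WT replicates 1 to 4 and 408, 402 and 447 CPM in WDR6-WKO replicates 1 to 3. The groups were apart, with the highest WDR6-WKO library below the lowest WT library. *Hsp90b1* fell by 0.25 on the log2 scale (SE 0.048, edgeR adjusted p = 0.00332), from 496 ± 12.1 to 419 ± 24.1 CPM. Exons of 3 other annotated genes on either strand cover 15.7% of its exon bases, so its counts may include their reads. Within a library, *Hsp90b1* had 0.426 to 0.442 reads per read of *Hspa5* in WT and 0.383 to 0.400 in WDR6-WKO, a ratio that no scaling of libraries can change. This pair was chosen after its values were seen and was not tested.

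*Hyou1*, which encodes a large Hsp70-like protein that exchanges the nucleotide of BiP, lies on chromosome 9 from 44379490 to 44392369. It stood at 120, 119, 122 and 132 CPM in WT and at 116, 110 and 107 CPM in WDR6-WKO libraries. All WDR6-WKO libraries were below the WT ones. The log2 fold change was -0.15 with a 95% interval of -0.26 to -0.034, and the adjusted p from edgeR was 0.0842.

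Of the 3 J-domain proteins and their partner *Sdf2l1*, 0 of 4 passed the edgeR test. *Dnajc3* on chromosome 14, whose product assists BiP and was first known as an inhibitor of eIF2α kinases, varied least in WT. It was counted at 231, 234, 232 and 233 CPM in WT replicates 1 to 4 and at 210, 215 and 226 CPM in WDR6-WKO replicates 1 to 3, so that the groups did not overlap. The log2 fold change of *Dnajc3* was -0.10, with a 95% interval of -0.20 to -0.0044 and an adjusted p of 0.160 in the edgeR test. Without WDR6-WKO replicate 3, where 4233 of 14796 genes in all were called, its adjusted p in that test was 0.0112. Without any other single library it was 0.225 to 0.386. *Dnajb9* on chromosome 12, whose product brings BiP to IRE1, had WT levels of 50.9 to 60.0 CPM and WDR6-WKO levels of 50.5 to 55.3 CPM. *Dnajb11* on chromosome 16, a co-chaperone that binds unfolded clients itself, ranged from 80.9 to 87.2 and from 76.0 to 85.9 CPM. *Sdf2l1*, on the same chromosome, encodes a partner of DNAJB11 and had the fewest reads, 360 to 442 in WT and 283 to 451 in WDR6-WKO libraries. These 3 genes overlapped between the groups. Their 95% intervals of the log2 fold change were -0.22 to 0.060 for *Dnajb9*, -0.16 to 0.086 for *Dnajb11* and -0.35 to 0.070 for *Sdf2l1*, so a fall of about the size seen in *Hsp90b1* lay inside the interval of *Sdf2l1* and outside those of the other 2. Of the 50-base sequences of *Dnajb9*, 5.50% occur in transcripts of other genes.

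*Pdia4*, a disulfide isomerase with additional active domains that is found in complexes with BiP, lies on chromosome 6 from 47796141 to 47813430. Its level was 162, 168, 167 and 169 CPM in WT replicates 1 to 4 and 149, 153 and 147 CPM in WDR6-WKO replicates 1 to 3. The groups did not overlap, and the coefficient of variation was 1.96% in WT and 1.94% in WDR6-WKO. *Pdia4* fell by 0.15 on the log2 scale (SE 0.046, edgeR adjusted p = 0.0399). The call was lost with library sizes alone in place of TMM (adjusted p = 0.0815) and when any library other than WDR6-WKO replicate 3 was left out (adjusted p of 0.0577 to 0.112), while the log2 fold change stayed between -0.17 and -0.13.

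The transcription factors *Xbp1* and *Atf6* had the largest fold changes of the 10 genes in size, in opposite directions. *Xbp1* lies on chromosome 11 from 5520659 to 5525893. It was counted at 249, 247, 260 and 258 CPM in WT replicates 1 to 4 and at 196, 191 and 199 CPM in WDR6-WKO replicates 1 to 3. The gap between the groups was wider than the range within either. *Xbp1* fell by 0.38 on the log2 scale (SE 0.045, edgeR adjusted p = 5.02e-05), from 254 ± 6.40 to 195 ± 4.08 CPM, and ranked 137 of all genes tested by p.

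*Atf6* lies on chromosome 1 from 170704674 to 170867771. Its level was 99.0, 97.3, 103 and 103 CPM in WT replicates 1 to 4 and 115, 120 and 130 CPM in WDR6-WKO replicates 1 to 3. Every WDR6-WKO library was above every WT library. *Atf6* rose by 0.27 on the log2 scale (SE 0.054, edgeR adjusted p = 0.00406), from 101 ± 3.02 to 121 ± 7.42 CPM. In reads of the same library, *Atf6* had 0.393 to 0.401 per read of *Xbp1* in WT and 0.587, 0.627 and 0.651 in WDR6-WKO replicates 1 to 3. This ratio, which was chosen after the values were seen, is a description with no test.

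**Figure D2:**
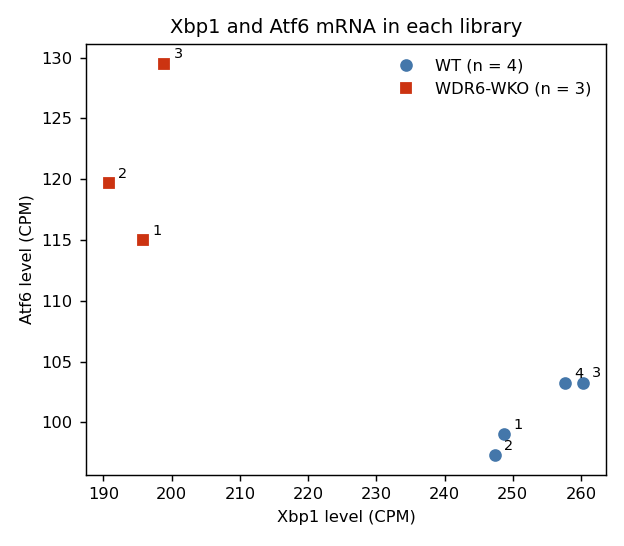
Level of *Xbp1* (horizontal axis, CPM) against that of *Atf6* (vertical axis, CPM) in each library, with the replicate number beside each point; neither axis starts at 0. WT libraries (circles) lie between 247 and 260 CPM of *Xbp1* and WDR6-WKO libraries (squares) between 191 and 199, with *Atf6* at 97.3 to 103 and 115 to 130 CPM.

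The exact two-sided permutation test gave p = 0.0286, the smallest that the 35 splits allow, for the 7 genes with separate ranges, and p = 0.229 for *Sdf2l1*, 0.286 for *Dnajb9* and 0.571 for *Dnajb11* in the same exact test. The fold changes of the 10 genes with their intervals show *Xbp1* and *Atf6* at the ends and the chaperones between them.

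**Figure D3:**
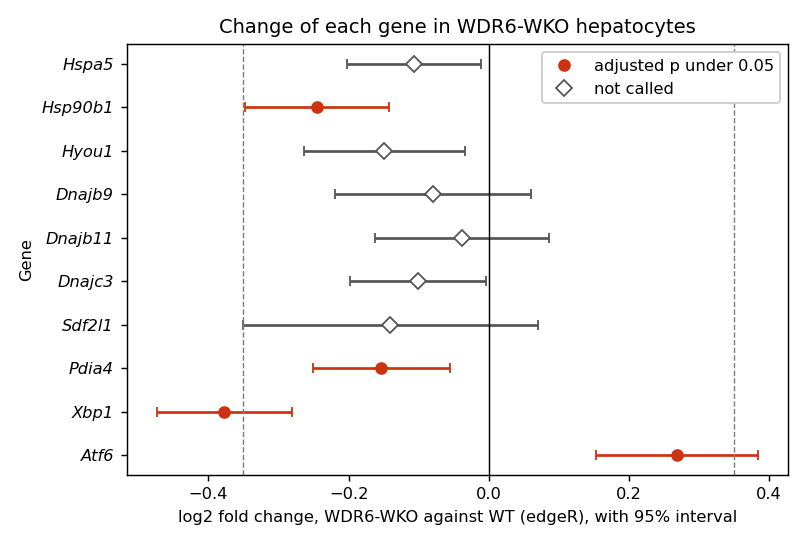
log2 fold change of each gene in WDR6-WKO against WT hepatocytes (horizontal axis, edgeR) with its 95% interval; filled circles have an adjusted p under 0.05, open diamonds do not, and dashed lines mark an absolute log2 fold change of 0.35. *Xbp1* at -0.38 is the single estimate beyond a dashed line, and the intervals of *Dnajb9*, *Dnajb11* and *Sdf2l1* include 0.

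Per kilobase of annotated exons, *Hspa5* had the highest level of the 10 genes in WT at 271 CPM per kb, followed by *Hsp90b1* at 123, *Xbp1* at 78.0, *Pdia4* at 69.3 and *Dnajc3* at 45.2 CPM per kb. *Dnajb11*, *Dnajb9*, *Sdf2l1*, *Hyou1* and *Atf6* followed in that order, between 26.2 and 10.9 CPM per kb. In WDR6-WKO hepatocytes *Xbp1*, at 60.1 CPM per kb, came after *Pdia4* at 62.3, and the other places were the same. The lengths are those of all exons of a gene joined, which may be longer than the transcripts that hepatocytes make. The 10 genes together took 2634 to 2728 CPM in WT and 2377 to 2519 CPM in WDR6-WKO libraries, on average 2681 ± 40.9 CPM (s.d., n = 4) against 2432 ± 76.6 CPM (s.d., n = 3), or 90.7% of the WT level. *Hspa5* is the largest part of that sum.

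The WDR6-WKO libraries did not order these genes alike. Replicate 3 was the highest of the WDR6-WKO libraries for *Hspa5*, *Hsp90b1*, *Dnajc3* and *Dnajb9*, as well as *Xbp1* and *Atf6*, and the lowest for *Hyou1*, *Dnajb11*, *Sdf2l1* and *Pdia4*. In each WDR6-WKO library 2 or 3 of the 10 genes were above their WT mean, against 3 to 8 in the WT libraries. The median of the 10 genes relative to their WT means was -0.14, -0.12 and -0.15 on the log2 scale in WDR6-WKO replicates 1 to 3. *Fam69a*, *Zfp397*, *Dip2b*, *Slc30a9* and *Bche* were the 5 genes of the table whose log2 levels followed those of *Hspa5* most closely over the 7 libraries, with Pearson's r of 0.984 to 0.995. Among the other ER chaperones and regulators, r with *Hspa5* was 0.977 for *Dnajc3*, 0.949 for *Hsp90b1*, 0.845 for *Xbp1*, 0.783 for *Pdia4*, 0.647 for *Dnajb9* and 0.593 for *Hyou1*, and below 0 for *Sdf2l1* at -0.014, *Dnajb11* at -0.11 and *Atf6* at -0.58. With 7 points that share 2 genotypes, this is a description of these libraries only.

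Most other genes of the ER did not pass. Of 27 further folding factors tested, 5 were lower and 0 higher (18.5% called, against 12.8% of all genes tested), with a median log2 fold change of -0.057. *P4hb*, a disulfide isomerase and the gene of this list with the highest CPM in WT, fell from 1178 ± 26.2 to 1042 ± 4.81 CPM. *Txndc11* and *Uggt1*, the sensor that returns misfolded glycoproteins to calnexin and calreticulin, fell to 82.5% and 88.3% of the WT level. The count of 5 ranged from 0 without WT replicate 2 to 13 without WDR6-WKO replicate 3, was 2 or 3 when any other library was left out and was 2 with library sizes alone. Of the 13 calls, 10 were lower and 3 higher. In the whole table, 4233 of 14796 genes were called without WDR6-WKO replicate 3 and 1288 of 14738 without WT replicate 2. Over the 14 alternatives *P4hb* kept its call in 13, *Txndc11* in 12 and *Uggt1* in 7.

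Of 20 genes of ER-associated degradation, which carries misfolded proteins to the proteasome, 3 were lower and 1 higher, or 20% called, against 12.8% of all genes tested. *Edem1* fell to 88.2%, *Syvn1*, the ubiquitin ligase of the pathway, to 85.8% and *Erlec1* to 86.4% of the WT level, and *Ube2g2* rose to 115%. The count of 4 was 0 without WT replicate 2 or WDR6-WKO replicate 2, 1 without WT replicate 3, WT replicate 4 or WDR6-WKO replicate 1, 2 without WT replicate 1 and 8 without WDR6-WKO replicate 3. Those 8 were 4 lower and 4 higher, and with library sizes alone 2 were lower and 2 higher. In the whole table, 4233 of 14796 genes were called without WDR6-WKO replicate 3, 1288 of 14738 without WT replicate 2 and 1032 of 14792 without WDR6-WKO replicate 2. *Ube2g2*, whose ranges overlapped between the groups, lost its call in 7 of 14 alternatives, *Erlec1* in 8, and *Edem1* and *Syvn1* in 4 each. *Herpud1*, a target shared by all UPR branches and chosen here after its values were seen, stood at 103 ± 4.26 and 108 ± 0.207 CPM and did not pass (adjusted p = 0.353 in the edgeR test).

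Of 30 genes of ER translocation and export known as targets of XBP1, 7 were lower and 0 higher (23.3% called, against 12.8% of all genes tested), with a median log2 fold change of -0.091. *Sec31a* and *Ssr1* fell to 84.0% and 84.7%, and *Sec61a1*, the pore of the translocon, to 86.3% of the WT level. The count lay between 3, without WT replicate 2 or WDR6-WKO replicate 2, and 16, without WDR6-WKO replicate 3, and was 4 without WT replicate 3 or 4. Of the 16 calls, 13 were lower and 3 higher, and library sizes alone gave 4 lower and 2 higher. In the whole table, 4233 of 14796 genes were called without WDR6-WKO replicate 3, 1288 of 14738 without WT replicate 2 and 1032 of 14792 without WDR6-WKO replicate 2. Among 12 genes for the sensors and their processing, 3 were lower and 1 higher (33.3% called, against 12.8% of all genes tested). *Eif2ak3*, which encodes PERK, fell from 36.6 ± 1.24 to 29.1 ± 3.49 CPM, and *Ern1*, which encodes IRE1α, rose from 130 ± 4.42 to 149 ± 12.6 CPM. The call of *Ern1* was lost in 8 of 14 alternatives, namely limma-voom, RLE size factors, the replicate block and without any WT replicate or WDR6-WKO replicate 2. *Creb3l2*, a relative of ATF6, and *Nfyb*, a subunit of NF-Y, fell to 80.5% and 83.8% of the WT level. Of the 4 calls, 2 were made without WT replicate 4 and 1 without WDR6-WKO replicate 2, where 1182 of 14712 and 1032 of 14792 genes in all were called.

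Genes whose RefSeq promoter window holds ERSE form a list that uses no expression value. They have 37 symbols, of which 17 were tested and 6 called, 5 lower and 1 higher, or 35.3% against 12.8% of all genes tested, with a median log2 fold change of -0.079. Besides *Hsp90b1* the called genes were *Calr* and *Syvn1*, both of the ER, and *Acnat2*, *Xlr3a* and *Spats2l*, of which *Spats2l* was the higher. *Calr*, the lectin chaperone calreticulin, fell from 967 ± 18.7 to 877 ± 31.2 CPM and lost its call in 7 of 14 alternatives. *Xlr3a* stood at 1.56 CPM in WT and has near-identical relatives, which makes its value uncertain. Without *Hspa5*, *Hsp90b1* and *Dnajc3*, 5 of 14 genes were called, 4 lower and 1 higher, and the median log2 fold change was -0.0096. These 14 still include other ER folding factors, such as *Calr*. *Creld2*, whose promoter is on this list, stood at 33.1 ± 1.92 and 33.0 ± 5.44 CPM.

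Of 25 targets of the integrated stress response tested, 23 were higher and 0 lower, with a median log2 fold change of 0.70, and 0 of the 25 had a negative log2 fold change (92% called, against 12.8% of all genes tested). Because this list was written with earlier results of these data known, its share is a description only. The 3 with the smallest p, *Psat1*, *Aldh18a1* and *Mthfd2*, enzymes of serine, proline and one-carbon synthesis, rose to 194%, 213% and 256% of the WT level, and *Atf4* itself to 154%. The relatives of the ER chaperones in other compartments gave 1 higher and 2 lower of 13 tested, or 23.1% called, against the same 12.8%. *Hspa8*, the Hsp70 of the cytosol, fell from 2674 ± 89.0 to 2167 ± 153 CPM, *Hspa9*, that of mitochondria, rose from 685 ± 10.3 to 820 ± 48.5 CPM, and *Hsph1*, a partner of cytosolic Hsp70, fell to 81.7% of the WT level. *Hsp90ab1*, the cytosolic Hsp90, was at 91.6% of the WT level and did not pass (adjusted p = 0.0596 in the edgeR test). Differences in change between these lists were not tested. Without WDR6-WKO replicate 3, 5 of the 13 relatives were called, where 4233 of 14796 genes in all were.

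**Figure D4:**
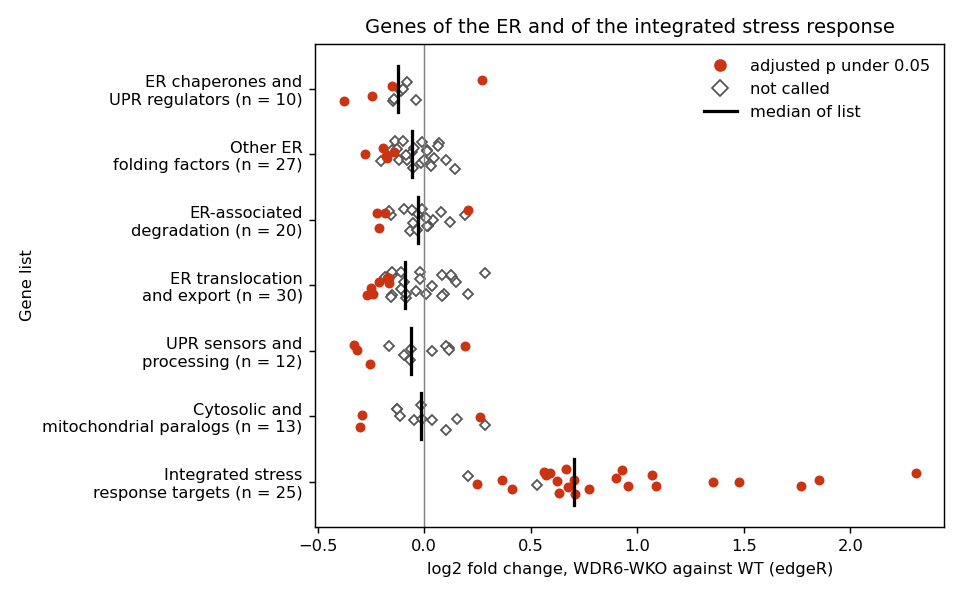
log2 fold change (horizontal axis, edgeR, WDR6-WKO against WT) of each gene tested in 7 lists (rows, with the number of genes), with the median of each list as a black bar; filled circles have an adjusted p under 0.05, open diamonds do not, and vertical position within a row has no meaning. The 10 ER chaperones and UPR regulators have a median of -0.12 and the 25 targets of the integrated stress response a median of 0.70. All 7 lists were chosen with earlier results of these data known.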

How the data were processed

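The authors prepared libraries with a NEBNext Ultra kit, sequenced them on an Illumina HiSeq platform and aligned the reads to the mouse genome (mm10, the UCSC name of GRCm38) with Bowtie2 2.2.3, as the submitters' processing notes name it. They deposited read counts per gene symbol, without normalization, for 7 libraries. The counting tool, its annotation, its use of strand and the rule by which genes with few reads were left out are not given in the sources used here. The table has 14819 rows, and the smallest row total is 50 counts.

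CPM and log2 fold changes were derived from the deposited counts, which were tested in edgeR 4.0.16 under R 4.3.3 (TMM scaling, filterByExpr, robust quasi-likelihood test) over the 14779 genes tested, with Benjamini-Hochberg adjustment. Standard errors and 95% intervals came from the log2 fold change and its F statistic. Exact permutation tests used mean log2 CPM, with a prior count of 0.5, over all 35 splits. Spearman's rho between libraries of a group lay between 0.992 and 0.996, and the counts of every such pair differed by more than sampling noise (chi-square of 3.80 to 15.9 per gene). The biological coefficient of variation was 7.40%. On simulated counts for these libraries, with 14696 genes tested and levels at or above the lowest of the 10 genes, 52 of 55 genes with a log2 change of 1 and 48 of 49 with a change of 0.5 were recovered. At all levels, 78 of 100 and 60 of 97 were recovered, with 8 false calls. Changes smaller than 0.5 were not simulated. Those of the 10 genes were all smaller, so the simulation does not tell how often changes of their size are found. Annotation came from GENCODE M21 on GRCm38.

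The members and gene lists were chosen with earlier results of these data known. Genes were named by a fixed rule, which takes the 10 members, *Wdr6*, 3 relatives in other compartments, the 5 genes most like *Hspa5* by Pearson's r, and per list the 3 genes with the smallest p among those called in each direction. *Herpud1*, *Calr*, *Creld2*, *Atf4* and the other genes with ERSE were added after their values were seen. Alternatives were DESeq2 1.42.0, limma-voom (limma 3.58.1), other scalings, filters and thresholds, the replicate number as a block and each library left out.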

Additional observations from a re-analysis of the deposited data

How the results depend on the processing

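*Xbp1*, *Hsp90b1*, *Atf6* and *Wdr6* kept their direction and an adjusted p under 0.05 in all 14 alternatives, with log2 fold changes of -0.39 to -0.35, -0.30 to -0.22, 0.22 to 0.30 and -4.27 to -4.15. *Pdia4* kept its direction and lost its call in 8 of them. *Hyou1*, *Dnajb9* and *Sdf2l1* stayed negative and not called in all 14. *Hspa5* and *Dnajc3* were called only without WDR6-WKO replicate 3, where *Dnajb11* turned to a log2 fold change of 0.014 (range without 1 library -0.073 to 0.014), and the number of genes called in the whole table rose from 1897 to 4233 (1032 to 1401 without any other library). With each library left out, 3 to 6 of the 10 genes were called. With DESeq2, limma-voom, other scalings or other filters, 3 or 4 were called. In the whole table these settings called from 1872 of 13758 genes (at least 10 counts in every sample) to 2000 of 14819 (DESeq2). With an adjusted p under 0.1, 5 of the 10 genes were called (19.2% of all genes). Without a minimum on the fold change, 7 had an unadjusted p below 0.05 (28.1% of all genes). Without 1 library, the calls lay between 0 and 13 for other folding factors, 0 and 8 for ER-associated degradation, 3 and 16 for translocation and export, 1 and 6 for the sensors, 2 and 5 for the relatives in other compartments and 23 and 24 for targets of the integrated stress response. Other folding factors gave 2 calls with library sizes alone. Library sizes alone moved the split of all calls to 1212 higher and 696 lower, against 983 and 914. The cause of these changes was not tested.

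The groups share replicate numbers 1 to 3, and deviations of same-numbered libraries correlated at 0.031, 0.021 and 0.035 over genes, with 2 of 3 WT libraries closest to their own number. These values do not settle whether the numbers mark pairs, and the main test did not take them as pairs. With the replicate number as a block and WT replicate 4 left out, 3 of the 10 genes and 1749 genes in all were called, against 1182 without the block on the same 6 libraries, and other folding factors gave 2 calls. The block took the call from *Pdia4* (adjusted p = 0.0884 in edgeR), as leaving out WT replicate 4 alone did. Genes with few reads, such as *Sdf2l1*, have the widest intervals.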
